A study of Mus musculus with 3 samples.

Results

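Immune checkpoint genes encode receptors that raise or restrain the response of a T cell and the ligands that engage them on other cells. The 10 genes taken here, of the 27998 genes in the count tables, were 6 receptors (Pdcd1, Ctla4, Lag3, Tigit, Havcr2 and Icos) and 4 ligands (Cd274, Pdcd1lg2, Cd80 and Cd86). They were listed by symbol for their known roles, with earlier results of these data known, and each symbol matched 1 row. Their unique molecular identifier (UMI) counts were summed over the cells of each marker-defined class in each library and divided by all UMIs of those cells, as UMIs per 1000000 UMIs (CPM).

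The 3 single-cell RNA-seq libraries were made from kidney at day 14 of the FA (folic acid) model in mice labelled as 6-8 weeks old. Aoah encodes acyloxyacyl hydrolase, an enzyme that inactivates bacterial lipopolysaccharide. The libraries were 2 from Aoah-/- mice (replicates 2 and 3) and 1 from WT (replicate 3). Littermates served as WT, and the mutated gene had been backcrossed to C57BL/6J. All 3 were from FA mice and no vehicle library was analysed here, so a level below describes the injured kidney. With 1 WT library no difference could be tested. The labels do not say how many mice gave a library, but the authors give n = 1 for WT and n = 2 for Aoah-/- mice.

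PD-1, encoded by Pdcd1, restrains a T cell after its ligands PD-L1 (Cd274) or PD-L2 (Pdcd1lg2) bind it. CTLA-4 competes with the costimulatory receptor CD28 for CD80 and CD86, the B7 molecules that antigen-presenting cells display. LAG-3 binds MHC class II, TIGIT binds the poliovirus receptor, and TIM-3 (Havcr2) binds galectin-9 among other ligands. ICOS belongs to the CD28 family but costimulates. In an inflamed kidney, T cells, dendritic cells and phagocytes enter the tissue beside the tubules, and the inhibitory axes among these are known as brakes on that infiltrate.

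The libraries held 23072 to 25516 barcodes and 158551992 to 167222984 UMIs, and 18202 to 21368 cells were kept. Aoah itself stood at 6.06 and 5.68 CPM over all barcodes of the Aoah-/- libraries and at 15.3 CPM in the WT library. These 3' UMIs of Aoah do not show which exons were deleted. Pairs of libraries shared 109 to 117 barcodes of kept cells. Barcodes went down to 500 UMIs in Aoah-/- replicate 2 and in WT but only to 1672 in Aoah-/- replicate 3, so shallow cells were missing from the last. Aoah-/- replicate 2 stood apart in another way, since it held 1390 of the cells of an unnamed cluster (cluster 29) led by Saa3, Fn1, Prg4 and Alox15, against 13 in Aoah-/- replicate 3 and 77 in WT. By its fixed markers this cluster scored best as macrophage (mean log2 fold 5.65), but no macrophage marker was among its leading genes. Whole-library values of the ligands are given with and without that cluster and the B lymphocyte-like cells.

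Cells fell into 40 clusters, and a cluster was called X-like where its fixed markers led it. T lymphocyte-like cells numbered 2096 and 2053 in the Aoah-/- libraries and 1293 in WT. The corresponding numbers were 1666, 1264 and 1744 for macrophage-like, 824, 700 and 213 for granulocyte-like, and 394, 376 and 385 for dendritic-like cells. T and NK cells were divided further into CD8 T, CD4 T, regulatory T, naive T, gamma delta and IL-17 T, NK and cycling cells, and dendritic cells into conventional DC 1, conventional DC 2 and mature DC, each named -like from its markers. These subsets did not cover all cells. Of 1155 dendritic-like cells, subclusters of 172 and 277 cells were named macrophage, 81 proximal tubule, and 198 and 21 stayed unnamed. T and NK subclusters of 255, 450 and 209 cells stayed unnamed. All of these cells stayed in their parent class, so values of dendritic-like cells include them. The tubule cells of the ascending limb, distal convoluted tubule and collecting duct intercalated type, which should lack T cell genes, were used as a reference, called the background tubule level. Free RNA and RNA of their own cannot be told apart in it, above all for the ligands, which are not T cell genes. Counting errors below are exact Poisson intervals for levels and exact Clopper-Pearson intervals for shares, at 95%. They cover counting error only, not differences between mice.

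Several of the genes lie close to each other. In the GRCm38 annotation (GENCODE M21), Ctla4 (chromosome 1, 60887000 to 60915832, plus strand) lies 62095 bp before Icos (60977927 to 61000320) and 113641 bp after Cd28. Cd274 (chromosome 19, 29367455 to 29388095, plus strand) lies 22824 bp before Pdcd1lg2 (29410919 to 29471161, plus strand). Cd86, Cd80 and Tigit lie on chromosome 16, Pdcd1 lies farther along chromosome 1, Lag3 is on chromosome 6 and Havcr2 on chromosome 11. All 10 are protein-coding.

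Ctla4, Cd274 and Pdcd1lg2 were each high in regulatory T-like cells, although 1 is a receptor and 2 are ligands, and their RefSeq promoters (GRCm38.p6, 250 bases before to 50 after the start) are shown for that reason. Capitals mark GGAAA, the core letters bound by NFAT factors of activated T cells, or its reverse complement TTTCC. The windows are chr1:60908775-60909074, chr19:29367188-29367487 and chr19:29410669-29410968, all on the plus strand, written 5' to 3'. The Ctla4 window lies inside the GENCODE M21 gene span given above, which begins farther upstream than the RefSeq start used here.
Ctla4: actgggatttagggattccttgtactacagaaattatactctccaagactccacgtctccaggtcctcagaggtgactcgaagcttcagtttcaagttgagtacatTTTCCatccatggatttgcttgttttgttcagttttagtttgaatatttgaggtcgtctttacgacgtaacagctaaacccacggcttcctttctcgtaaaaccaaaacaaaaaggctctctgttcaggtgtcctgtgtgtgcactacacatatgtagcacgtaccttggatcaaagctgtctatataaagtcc
Cd274: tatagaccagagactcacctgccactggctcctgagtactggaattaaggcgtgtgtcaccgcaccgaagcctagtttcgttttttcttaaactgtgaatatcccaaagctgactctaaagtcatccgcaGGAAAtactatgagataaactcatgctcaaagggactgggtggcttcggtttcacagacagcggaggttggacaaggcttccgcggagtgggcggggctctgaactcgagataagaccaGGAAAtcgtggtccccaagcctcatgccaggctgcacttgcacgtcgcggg
Pdcd1lg2: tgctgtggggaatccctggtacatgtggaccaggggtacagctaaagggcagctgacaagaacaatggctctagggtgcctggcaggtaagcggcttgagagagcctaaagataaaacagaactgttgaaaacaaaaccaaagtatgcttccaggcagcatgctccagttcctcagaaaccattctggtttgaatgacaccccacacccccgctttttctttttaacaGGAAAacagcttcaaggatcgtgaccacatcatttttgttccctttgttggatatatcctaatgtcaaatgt
Ctla4 held 1 match, Cd274 held 2 and Pdcd1lg2 held 1. Of the 7 genes with a promoter in the RefSeq table (Pdcd1, Cd274, Pdcd1lg2, Ctla4, Cd80, Tigit and Havcr2), 5 held the letters, and 61.3% of 32851 promoters of this length did, so a match is a common feature.

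On average over the libraries, most receptor UMIs lay in lymphocytes and most ligand UMIs in myeloid cells. Of the receptor UMIs, 72.1% (95% interval 70.8 to 73.5), 67.5% (66.3 to 68.7) and 78.9% (77.6 to 80.1) (Aoah-/- replicate 2, Aoah-/- replicate 3 and WT, the order of all triplets of values here) lay in T and NK lymphocyte-like cells, with a mean of 72.9%. Of the ligand UMIs, 45.8% (95% interval 44.5 to 47), 68.8% (67.6 to 70) and 67.6% (65.95 to 69.2) lay in macrophage-, monocyte-, granulocyte-, dendritic- and plasmacytoid DC-like cells, with a mean of 60.7%. Aoah-/- replicate 2 was the low one, with less than 50% in myeloid-like cells, and 22.4%, 2.13% and 3.86% of the ligand UMIs lay in unnamed clusters and 16.2%, 3.12% and 6.55% in B lymphocyte-like cells. The unnamed clusters include cluster 29, which scored best as macrophage and held 921, 8 and 58 Cd86 and 331, 7 and 8 Cd274 UMIs. Its cells were not counted as myeloid-like, so the low share depends on the naming rule. The 2 exceptions among the receptors were Lag3 and Havcr2, which had only 22.1% and 5.64% of their UMIs in T and NK lymphocyte-like cells on average. Among the ligands, Pdcd1lg2 had 32.7% in myeloid-like and 43.9% in T and NK lymphocyte-like cells, and Cd274 had 45.6% in myeloid-like cells.

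**Figure D1:**
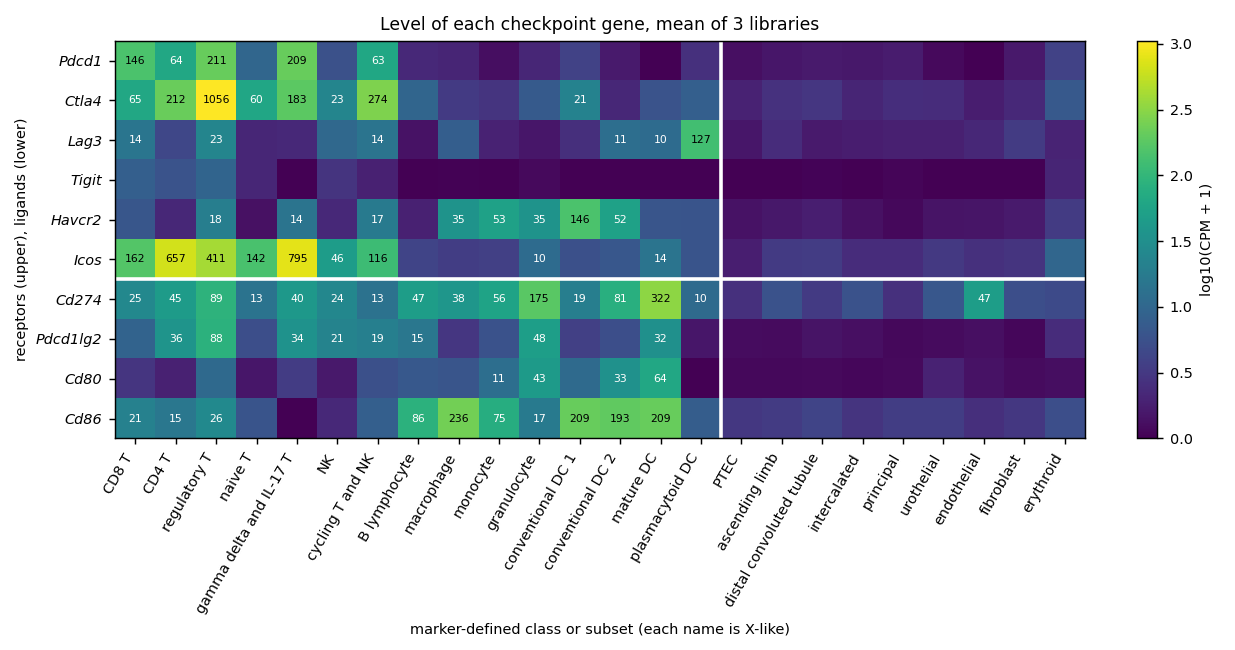
Heat map of the level of the 6 receptors (upper rows) and 4 ligands (lower rows) in 24 classes and subsets, as log10(CPM + 1) of the mean CPM of the 3 libraries, with the CPM printed where it reached 10. Pdcd1, Ctla4 and Icos are bright on T subsets, and Tigit stays below 10 CPM in every class. Lag3 is brightest on plasmacytoid DC-like and Havcr2 on conventional DC 1-like cells. Cd274 and Cd80 are brightest on mature DC- and granulocyte-like cells, and Pdcd1lg2 on regulatory T- and granulocyte-like cells. Cd86 is brightest on macrophage- and dendritic-like cells. Cd274 alone is bright outside leukocytes, on endothelial-like cells.

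Pdcd1 was found mainly on T subsets other than naive T-like cells. Its level was 193, 242 and 199 CPM in regulatory T-like cells. Gamma delta and IL-17 T-like cells had 215, 223 and 189 CPM, a range that overlapped that of regulatory T-like cells. CD8 T-like cells came next with 172, 109 and 159 CPM, below both without overlap. CD4 T-like cells had 83.7, 56.8 and 52.6 CPM, and naive T-like cells only 6.797, 6.19 and 13.6 CPM. Background tubule cells had 0.646, 0.883 and 0.133 CPM. Outside T cells the named immune classes held at most 12 Pdcd1 UMIs in a library, and endothelial-like cells held 0 UMIs in all 3 libraries, which allows up to 2.17 CPM in WT by 3 counts. After each cell was thinned to 1000 UMIs, 9.18%, 7.65% and 7.83% of T lymphocyte-like cells held a Pdcd1 UMI, against 0.0904%, 0.0327% and 0 of 1397 background tubule cells, the last allowing up to 0.215%. Unthinned shares, over all cells of the class, were 17.5%, 16.7% and 15.6%, against 0.405%, 0.557% and 0.131% in tubule cells. The T lymphocyte-like cells with at least 1000 UMIs had median depths of 2601, 3051 and 3050 UMIs. Such tubule cells had 9719.5, 5595 and 9094 UMIs. Thinning left out 125, 0 and 67 T lymphocyte-like cells.

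Ctla4 marked regulatory T-like cells above every other class. Regulatory T cells are known to carry CTLA-4 constitutively, and their CTLA-4 strips CD80 and CD86 from antigen-presenting cells. The level there was 1072, 948 and 1146 CPM, a mean of 1056 ± 99.9 (SD, 3 libraries), and the lowest library was above the highest of the next subset, cycling T and NK-like cells, at 345 CPM. CD4 T-like cells had 249, 207 and 179 CPM and CD8 T-like cells 64.6, 59.03 and 69.9 CPM. Of regulatory T-like cells thinned to 1000 UMIs, 61.8%, 52.7% and 56.5% held a Ctla4 UMI, against 0.226%, 0.458% and 0.143% of background tubule cells. Unthinned, the shares were 86.3%, 80.5% and 82.6%, against 0.648%, 1.87% and 0.525%.

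Icos, the costimulatory member, had another order than Ctla4, its neighbour on chromosome 1. Gamma delta and IL-17 T-like cells had the most Icos, with 768, 741 and 875 CPM, and CD4 T-like cells followed with 620.3, 681 and 671 CPM. Regulatory T-like cells had 298, 371 and 565 CPM, which left them below CD4 T-like cells in every library. CD8 T-like cells had 134, 136 and 217 CPM, a range that overlapped that of naive T-like cells (134, 91.3 and 202 CPM). Background tubule cells had 1.29, 4.07 and 0.865 CPM of Icos, the high value being Aoah-/- replicate 3.

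Lag3 was highest outside T cells. Plasmacytoid DC-like cells, a class of type I interferon producers that is known to carry LAG-3, had 101, 104 and 175 CPM from 42, 66 and 58 UMIs. CD8 T-like cells had 13.01, 15.4 and 13.2 CPM, so they stayed under the plasmacytoid range, as every other class did. Regulatory T-like cells had 40.9, 11.1 and 16.1 CPM from 14, 7 and 5 UMIs, and the high library, Aoah-/- replicate 2, also had 40.9, 7.96 and 6.42 CPM of Havcr2 and 891, 242 and 128 CPM of summed macrophage markers in these cells (8 of 12 markers above WT in both Aoah-/- libraries, 1 at 0 in every library). Their part in the value was not tested. Macrophage-like cells had 7.41, 7.503 and 5.798 CPM against a background tubule level of 0.991, 1.31 and 0.998 CPM. Lag3 thus stood above background in CD8 T-, plasmacytoid DC- and macrophage-like cells, at low counts in each. It did not in granulocyte-like (0.618, 1.02 and 0 CPM) or B lymphocyte-like cells (0.649, 0 and 0.542 CPM). The kidney classes together held 28.8% of Lag3 UMIs on average, but 72.9%, 74.5% and 82.5% of all kept UMIs.

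Havcr2 was mainly a myeloid transcript here. TIM-3 was first described on T cells and is also known as a receptor of dendritic cells and phagocytes. Conventional DC 1-like cells, which cross-present antigen to CD8 T cells, had 142, 144 and 153 CPM, above every other class without overlap. Monocyte-like cells had 47.2, 51.6 and 61.04 CPM, macrophage-like cells 37.03, 39.4 and 28.1 CPM and granulocyte-like cells 34.6, 40.1 and 30.8 CPM. CD8 T-like cells had 6.07, 5.801 and 4.72 CPM, from 14, 17 and 5 UMIs, against 0.603, 0.806 and 0.266 CPM in the background tubule. On average 85.3% of Havcr2 UMIs lay in myeloid-like cells.

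Tigit was scarce throughout, with 34, 44 and 22 UMIs in the kept cells of the 3 libraries. Of these, 29, 37 and 20 lay in T and NK lymphocyte-like cells. The CD8 T-like level was 7.81, 6.48 and 7.55 CPM and the regulatory T-like level 2.92, 9.55 and 12.8 CPM, with overlapping ranges. Dendritic-like cells held 0 Tigit UMIs in all 3 libraries, which allows up to 1.12 CPM in WT by 3 counts. No difference of Tigit between genotypes within a subset could be seen at such counts.

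**Figure D2:**
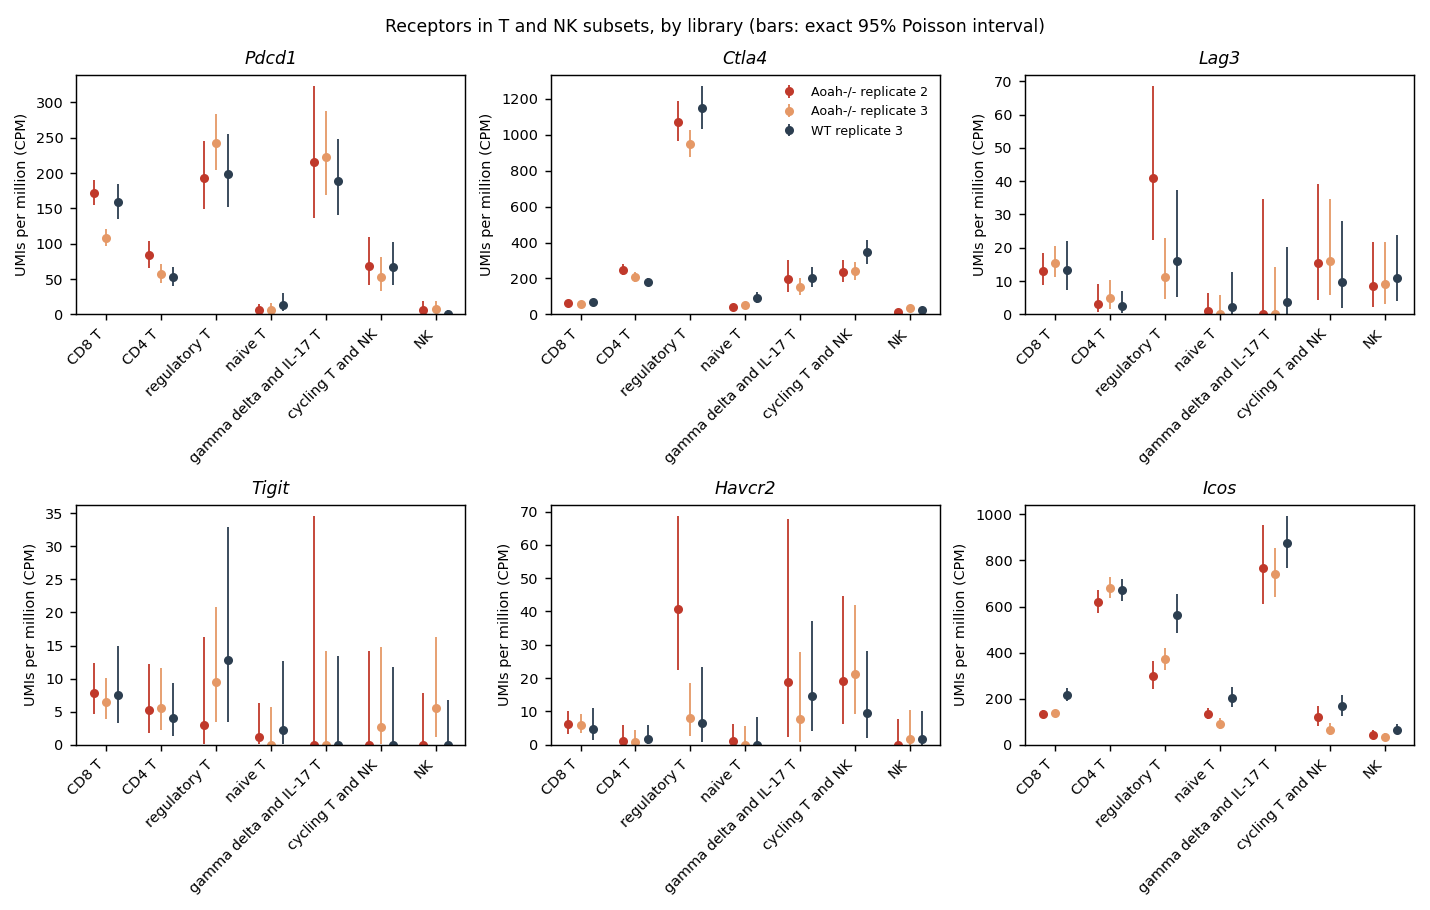
Level of the 6 receptors in 7 T and NK subsets, in CPM, 1 point a library (red and orange: Aoah-/- replicates 2 and 3, dark blue: WT replicate 3), with exact 95% Poisson intervals. Ctla4 peaks on regulatory T-like cells at 948 to 1146 CPM, and Icos is highest in the WT library on CD8 T-like (217 CPM), regulatory T-like (565 CPM) and naive T-like (202 CPM) cells while the 3 libraries lie close together on CD4 T-like cells.

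The first comparison asked whether Aoah-/- T cells carried more or less of the receptors than WT T cells. A gene was past the fold when both Aoah-/- libraries were at least 1.5-fold above, or both at least 1.5-fold below, the WT library, with at least 20 UMIs over the 3 libraries. In T lymphocyte-like cells 0 of the 6 receptors were past the fold above and 0 below, where 4.99% of 12129 genes were above and 3.0% below. The median log2 ratio of the receptors was 0.10, against 0.02 over all genes. The cells behind these values were unequal mixtures, since CD8 T-like cells made up 40.6%, 43% and 23.5% of T and NK cells, and CD4 T-like cells 14.5%, 18.05% and 28%.

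Pdcd1 stood at 103 (95% interval 94.99 to 111), 88.02 (81.4 to 94.98) and 86.2 (78.01 to 95.1) CPM in T lymphocyte-like cells. The second Aoah-/- library was inside the WT interval, and the log2 ratio of the Aoah-/- mean over WT was 0.15 ± 0.16 (SD of the 2 Aoah-/- libraries). Within CD8 T-like cells the order changed, with WT (159 CPM) between the Aoah-/- libraries (172 and 109 CPM) and a log2 ratio of -0.18 ± 0.47. The spread between the Aoah-/- libraries was thus larger than their distance from WT. In regulatory T-like cells the ratio was 0.13 ± 0.23, but when regulatory T cells were picked by a gate on UMIs of single genes it was 1.03 ± 0.25 and past the fold above (168, 214 and 93.6 CPM from 39, 93 and 33 UMIs, where 10.2% of all genes were), so that call depends on how the cells are chosen.

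Ctla4 stood at 152, 172 and 198 CPM in T lymphocyte-like cells, both Aoah-/- libraries below the WT interval of 185 to 211 CPM, with a log2 ratio of -0.29 ± 0.13. Neither library was 1.5-fold lower. Within subsets the direction was mixed, with a log2 ratio of -0.18 ± 0.12 in regulatory T-like and -0.18 ± 0.09 in CD8 T-like cells but 0.34 ± 0.19 in CD4 T-like cells. With the T subsets weighted as in the WT library, an alternative chosen after the values were seen, the T lymphocyte-like ratio became -0.08 ± 0.10.

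Lag3 stood at 9.56, 10.7 and 6.67 CPM and Havcr2 at 7.17, 4.905 and 3.87 CPM in T lymphocyte-like cells, with log2 ratios of 0.61 ± 0.12 and 0.64 ± 0.39. Only 1 Aoah-/- library of each was past 1.5-fold, Aoah-/- replicate 3 for Lag3 and Aoah-/- replicate 2 for Havcr2, and after thinning the Lag3 ratio was 0.12. In CD8 T-like cells alone the Lag3 ratio was 0.10 ± 0.17 and the Havcr2 ratio 0.33 ± 0.05. Tigit was 4.62, 4.37 and 4.302 CPM, with overlapping intervals.

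Icos was the receptor whose log2 ratio lay farthest from 0. T lymphocyte-like cells had 220.0 (95% interval 209 to 232), 257 (246 to 269) and 381 (364 to 399) CPM, both Aoah-/- libraries below WT with no overlap of intervals, and a log2 ratio of -0.68 ± 0.16. Aoah-/- replicate 2 was past 1.5-fold below and Aoah-/- replicate 3 just short of it. Icos passed the fold below in 7 of the other ways of choosing or scaling the cells, among them at most 20% mitochondrial UMIs, marker gates and thinning. With the subsets weighted as in WT the ratio shrank to -0.28 ± 0.06. Of T lymphocyte-like cells thinned to 1000 UMIs, 15.8%, 19.1% and 25.9% held an Icos UMI, against 0.136%, 0.589% and 0.215% of background tubule cells. Unthinned, the shares were 31.01%, 36.1% and 48.1% against 0.607%, 2.29% and 0.657%.

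The Icos ratio was then read within each T and NK subset. In CD8 T-like cells it was past the fold below (134, 136 and 217 CPM, log2 ratio -0.68 ± 0.02), the 1 receptor of 6 to be so, where 2.48% of 9639 genes were below and 10.6% above. The WT interval of 190.0 to 247 CPM lay above both Aoah-/- intervals (119 to 149.8 and 123 to 150.2 CPM). Summed macrophage markers in the CD8 T-like cells were 323, 337 and 119 CPM, 10 of 12 above WT in both Aoah-/- libraries and 0 of 12 at 0 in every library, and their part in the difference was not tested. Regulatory T-like cells (298, 371 and 565 CPM, log2 ratio -0.76 ± 0.22) and naive T-like cells (134, 91.3 and 202 CPM, -0.85 ± 0.39) were also past the fold below, where 3.68% and 5.64% of all genes were. CD4 T-like cells, with 620.3, 681 and 671 CPM, gave -0.04 ± 0.10, and gamma delta and IL-17 T-like cells -0.21 ± 0.04 with both Aoah-/- libraries lower. NK-like cells gave -0.75 ± 0.25 and cycling T and NK-like cells -0.86 ± 0.64, also with both lower but not past the fold. When CD8 and regulatory T cells were instead picked by the gates, the Icos ratio was -0.70 ± 0.04 and past the fold below in CD8 T cells, where 2.89% of all genes were, and -0.65 ± 0.45 in regulatory T cells, where it was no longer past the fold. Whether the subsets differ from each other in this was not tested.

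Ctla4 was also past the fold below in naive T-like cells, at 40.8, 49.5 and 90.9 CPM from 36, 32 and 40 UMIs, with a log2 ratio of -1.01 ± 0.20. Summed macrophage markers in the naive T-like cells were 173, 271 and 47.7 CPM, 7 of 12 above WT in both Aoah-/- libraries and 3 of 12 at 0 in every library, and their part in the Ctla4 and Icos values was not tested. In plasmacytoid DC-like cells Lag3 was past the fold below, with 101, 104 and 175 CPM and a log2 ratio of -0.77 ± 0.03, from 80, 98 and 64 cells, where 5.26% of all genes were below. The Aoah-/- values, taken without their own intervals, lay under the WT intervals of 64.95 to 124 CPM for Ctla4 and 133 to 226 CPM for Lag3. For Ctla4 the interval of Aoah-/- replicate 3, 33.9 to 69.9 CPM, overlapped that of WT. For Lag3 the interval of Aoah-/- replicate 2 overlapped that of WT as well.

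**Figure D3:**
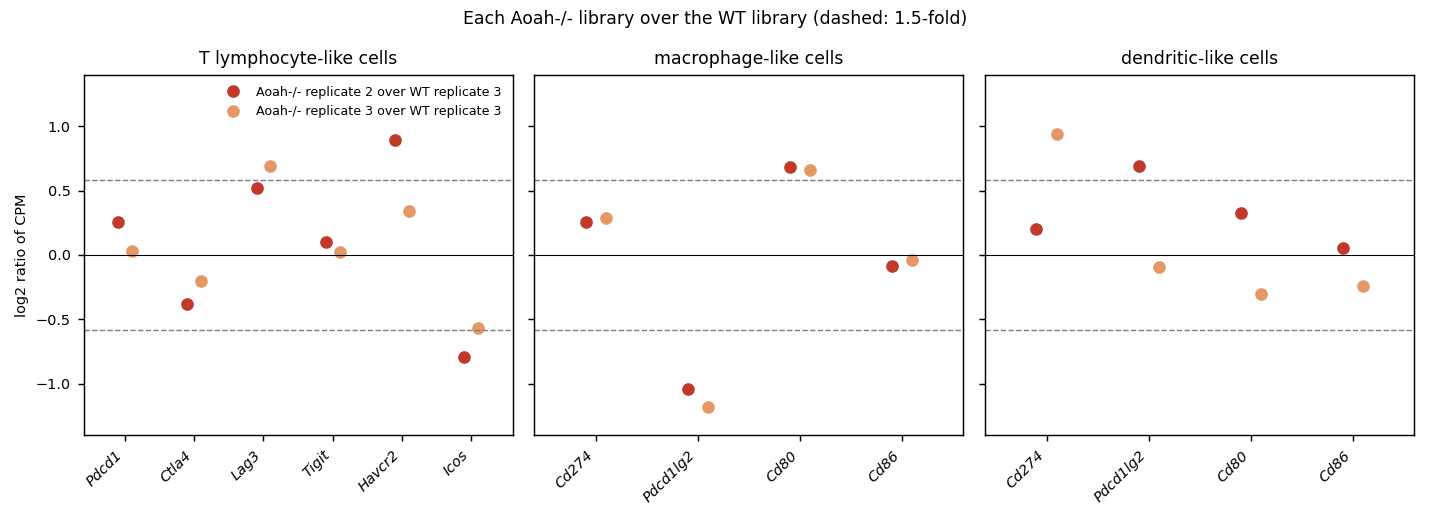
Log2 ratio of the CPM of each Aoah-/- library over the WT library, 1 point a library (red: replicate 2, orange: replicate 3), for the 6 receptors in T lymphocyte-like cells and the 4 ligands in macrophage-like and dendritic-like cells, with dashed lines at 1.5-fold. Icos is the lowest receptor at -0.68 on average with 1 point past the line, Cd80 and Pdcd1lg2 have both points past a line in macrophage-like cells, and no ligand has both past a line in dendritic-like cells.

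Within CD8 T-like cells, those with a Pdcd1 UMI also had more Ctla4 and, at low counts, more Lag3 and Havcr2. The cells with a Pdcd1 UMI were 24.02%, 17.7% and 23.4% of the subset (221, 167 and 81 cells), with median depths of 2376, 3051 and 3035 UMIs against 2383, 2881 and 2865 UMIs in the cells without. Ctla4 was 114, 136 and 115 CPM in cells with a Pdcd1 UMI and 48.8, 41.2 and 55.1 CPM in those without, a log2 ratio of 1.33 ± 0.34 (SD, 3 libraries). Lag3 was higher by 1.25 ± 0.64 on the log2 scale, in 3 of 3 libraries, on 10, 21 and 6 UMIs with and 20, 24 and 8 UMIs without. Havcr2 was 10.7, 9.04 and 7.67 CPM with and 4.59, 5.05 and 3.76 CPM without, but the WT values rest on 2 and 3 UMIs, so no mean ratio is given. Tigit was higher in 1 of 3 libraries. Icos did not follow, at a mean log2 ratio near 0 with 1 of 3 libraries higher.

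Tox, a factor of chronically stimulated CD8 T cells, had the highest mean log2 ratio among the listed genes read, 1.70 ± 0.80. Its level was 249, 163 and 222 CPM against 114, 64.3 and 36.3 CPM. It was first in WT only, at 2.61 on 58 and 29 UMIs. In the Aoah-/- libraries its ratios of 1.13 and 1.34 were below those of Ctla4, 1.22 and 1.72. Gzmk, a granzyme of effector memory cells, was lower in cells with a Pdcd1 UMI in all 3 libraries, by a mean log2 ratio of -0.30 ± 0.18. Cd8a and Cd3e were also higher, by 0.38 ± 0.04 and 0.44 ± 0.23, in 3 of 3 libraries. Among regulatory T-like cells 67.6%, 68.05% and 68.5% held UMIs of 2 or more of the 6 receptors before thinning, and 25.5%, 31.4% and 25% after it. The share in CD8 T-like cells was 12.6%, 15.3% and 18.2% before and 3.85%, 3.49% and 6.105% after thinning.

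Among the ligands, Cd274 had its highest level in mature DC-like cells, the Ccr7- and Fscn1-bearing dendritic cells that travel to lymph nodes. These had 316, 404 and 246 CPM, but only 21, 24 and 25 cells. Granulocyte-like cells had 195, 183 and 148 CPM, above regulatory T-like cells with 93.5, 82.8 and 89.9 CPM. Conventional DC 2-like cells had 44.1, 132 and 66.5 CPM, where Aoah-/- replicate 3 was far above the others. After thinning, 17.1%, 12.4% and 14.4% of granulocyte-like cells held a Cd274 UMI, against 0.271%, 0.7204% and 0.358% of background tubule cells. Unthinned, the shares were 25.1%, 23.6% and 24.4% against 3.08%, 3.14% and 3.02%.

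Among the kidney classes, endothelial-like cells stood out for Cd274, at 45.9, 49.1 and 47.01 CPM, 3 values that lay within the WT interval of 36.3 to 59.9 CPM. Unnamed cluster 25, which also scored best as endothelial, had a lower level of 19.6, 17.7 and 17.4 CPM. The principal, urothelial and fibroblast-like classes had at most 7.72 CPM. Proximal tubular epithelial cell (PTEC)-like cells had 1.83, 2.400 and 0.6497 CPM, below the 4.35, 4.45 and 3.79 CPM of the background tubule cells in each library. The PTEC level was past 1.5-fold above in both Aoah-/- libraries, and so was that of Pdcd1, a T cell receptor, with 0.192, 0.736 and 0.05303 CPM from 11, 42 and 4 UMIs, where 13.5% of all genes were. In the background tubule cells Pdcd1 and Cd86 were past the fold above as well, Cd86 at 3.14, 3.26 and 0.799 CPM, where 7.66% of all genes were. The PTEC-like class joined clusters that the libraries filled unequally, the fullest being cluster 15 in Aoah-/- replicate 2 (2930 cells), cluster 0 in Aoah-/- replicate 3 (2627 cells, against 400 and 145 in Aoah-/- replicate 2 and WT) and cluster 17 in WT (2978 cells). The part of this and of free RNA in the PTEC value was not tested.

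Pdcd1lg2 was spread over T cells and granulocytes. Regulatory T-like cells had 75.9, 90.7 and 96.3 CPM, above every granulocyte-like value (65.5, 57.3 and 21.2 CPM). CD4 T-like cells had 28.2, 38.4 and 39.9 CPM, and CD8 T-like cells 6.94, 11.3 and 6.61 CPM. Macrophage-like cells had only 1.52, 1.38 and 3.12 CPM, and endothelial-like cells at most 0.567 CPM. Regulatory T-like and granulocyte-like cells were thus among the highest classes for both PD-1 ligands, whereas endothelial-like cells were well above background for Cd274 alone.

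Cd80 and Cd86, the B7 pair, had different carriers. Cd86 was broad, with 229, 236 and 243 CPM in macrophage-like, 257, 180.1 and 189 CPM in conventional DC 1-like and 194, 171 and 215 CPM in conventional DC 2-like cells, whose ranges overlapped. B lymphocyte-like cells had 98.2, 77.8 and 80.7 CPM and monocyte-like cells 82.2, 75.3 and 67.8 CPM, both lower without overlap. Cd80 was highest in mature DC-like (89.1, 58.9 and 44.7 CPM), granulocyte-like (47.6, 39.1 and 42.3 CPM) and conventional DC 2-like cells (44.1, 14.7 and 39.9 CPM). The granulocyte-like range overlapped both others, which did not overlap each other. Macrophage-like cells, first for Cd86, had 6.08, 6.003 and 3.79 CPM of Cd80. After thinning to 1000 UMIs, 20.6%, 21.2% and 21.4% of macrophage-like cells held a Cd86 UMI, against 0.316%, 0.524% and 0.143% of background tubule cells, whereas the unthinned shares were 33.9%, 61% and 27.9%. Thinning left out 677, 0 and 884 of the macrophage-like cells.

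**Figure D4:**
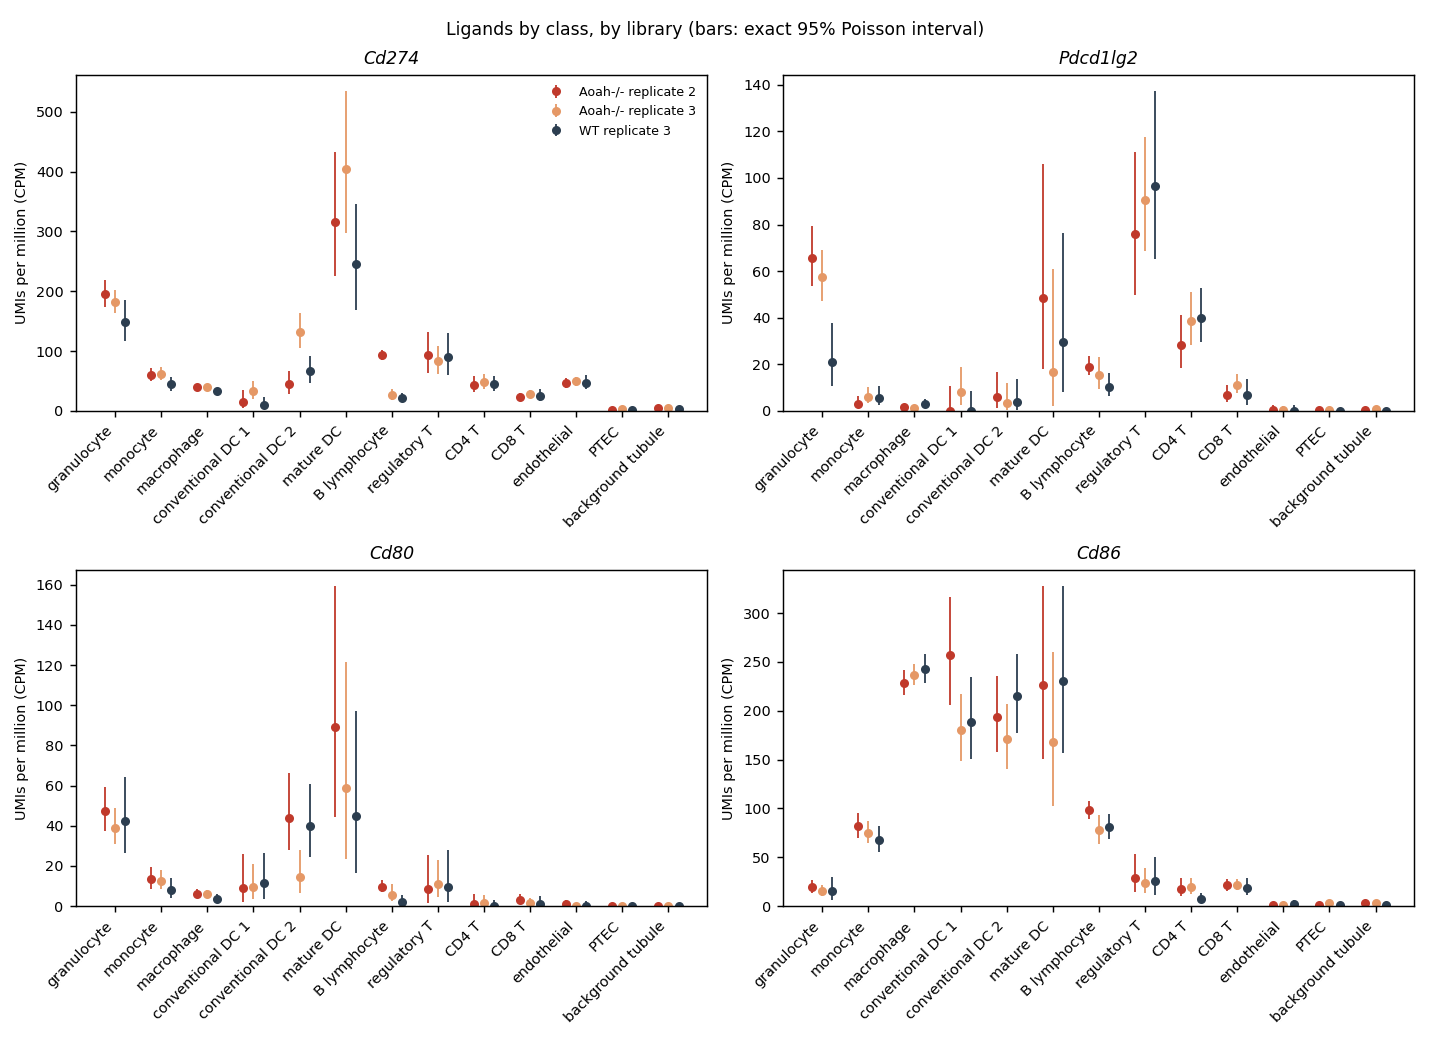
Level of the 4 ligands in 12 classes and subsets and in the background tubule cells, in CPM, 1 point a library (red and orange: Aoah-/- replicates 2 and 3, dark blue: WT replicate 3), with exact 95% Poisson intervals. Cd274 lies at 45.9 to 49.1 CPM in endothelial-like cells of all 3 libraries, Pdcd1lg2 in granulocyte-like cells is 65.5 and 57.3 CPM in the Aoah-/- libraries and 21.2 CPM in WT, and Cd274 in B lymphocyte-like cells is 93.0 CPM in Aoah-/- replicate 2 alone.

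The second comparison asked the same of the ligands on antigen-presenting cells. In macrophage-like cells 1 of 4 ligands, Cd80, was past the fold above and 1, Pdcd1lg2, below, where 9.98% of 11922 genes were above and 1.61% below. The median log2 ratio of the ligands was 0.10 against 0.21 over all genes. In dendritic-like cells 0 of 4 were above and 0 below, where 7.45% of 10485 genes were above and 1.83% below. Summed markers of T lymphocytes in the macrophage-like cells were 99.3, 126 and 58.6 CPM, with 11 of 12 markers above WT in both Aoah-/- libraries and 0 of 12 at 0 in every library, and granulocyte markers were 201, 218 and 70.5 CPM, 6 of 8 above and 0 of 8 at 0. Their part in the differences was not tested.

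Cd86 in macrophage-like cells had overlapping intervals in the 3 libraries at 229 (95% interval 216 to 242), 236 (226 to 247) and 243 (229 to 258) CPM, a log2 ratio of -0.06 ± 0.03. Cd274 was 39.3, 40.3 and 33 CPM, with a log2 ratio of 0.27 ± 0.02 and overlapping intervals. The Cd274 ratio depended on the choice of cells, being 0.02 with at most 20% mitochondrial UMIs, but 1.17 and past the fold above with each cell thinned to 1000 UMIs and 1.19 with the mean CPM of single cells, a setting that took Cd86 to 0.48. Cd80 was 6.08, 6.003 and 3.79 CPM from 32, 48 and 17 UMIs, with a log2 ratio of 0.67 ± 0.01, and the WT interval of 2.21 to 6.07 CPM overlapped both Aoah-/- intervals. Its ratio ranged from 0.27 with marker gates to 1.90 with the mean CPM of single cells. The class joined clusters 18, of shallow cells, and 33. In cluster 33 alone, which held 771, 1140 and 604 of the cells, Cd80 gave 0.42 ± 0.19 and was not past the fold, while Pdcd1lg2 gave -1.67 ± 0.29 on 6, 8 and 13 UMIs and Cd86 gave -0.26 ± 0.09. Cd86 in cluster 33 was 269 (95% interval 254 to 285), 246 (235 to 258) and 308 (290 to 328) CPM, both Aoah-/- intervals below that of WT. Cluster 18, with 895, 124 and 1140 cells, had a far lower 47.8, 36.9 and 48.6 CPM of Cd86. The part of this unequal mixture in the Cd86 value of the class was not tested.

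Pdcd1lg2 was 1.52, 1.38 and 3.12 CPM in macrophage-like cells, a log2 ratio of -1.11 ± 0.10, on 8, 11 and 14 UMIs. When the CPM of single cells was averaged in place of summed UMIs, the ratio was 0.24, so even its sign is unsure in this class. It had the other direction in granulocyte-like cells, where 65.5, 57.3 and 21.2 CPM from 106, 113 and 11 UMIs gave a log2 ratio of 1.54 ± 0.14. The WT interval there, 10.6 to 37.9 CPM, lay below both Aoah-/- intervals (53.6 to 79.2 and 47.3 to 68.9 CPM). Cd274 and Cd80 in the same granulocyte-like cells gave 0.35 ± 0.07 and 0.03 ± 0.20, so among the 4 ligands only Pdcd1lg2 was past the fold in them, where 16.6% of all genes were above. In the granulocyte-like cells summed B lymphocyte markers were 116, 59.4 and 28.9 CPM (7 of 10 above WT in both Aoah-/- libraries) and summed macrophage markers 785, 833 and 506 CPM (9 of 12), with none of either list at 0 in every library, and 12 of 16 PTEC markers were above as well at 9557, 12509 and 9203 CPM, 0 of them at 0 in every library. Their part in the Pdcd1lg2 value was not tested. The difference between the macrophage-like and granulocyte-like ratios was not tested.

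In dendritic-like cells Cd274 was 49.4, 82.6 and 42.98 CPM, with 1 Aoah-/- library inside the counting error of WT and the other above it, and a log2 ratio of 0.62 ± 0.52 that became 1.21 and past the fold above after thinning. Cd86 (165, 135 and 159 CPM) and Cd80 (28.5, 18.5 and 22.8 CPM) had WT between the Aoah-/- libraries. Mature DC-like cells, with 39, 48 and 33 Cd274 UMIs, gave a log2 ratio of 0.55 ± 0.25 with overlapping intervals. Conventional DC 1-like cells had 14.8, 32.5 and 9.11 CPM of Cd274 from 5, 20 and 4 UMIs, past the fold above. Ctla4 there was above too, at 26.6, 32.5 and 4.55 CPM from 9, 20 and 2 UMIs. Summed T lymphocyte markers in them were 17.7, 63.3 and 6.83 CPM. Of these 12 markers, 3 were above WT in both Aoah-/- libraries and 1 was at 0 in every library. Their part was not tested, and the share of all genes is not given for this subset. Cd274 was not past the fold in conventional DC 2- or mature DC-like cells. Monocyte-like cells had 60.5, 61.96 and 44.1 CPM of Cd274, a log2 ratio of 0.47 ± 0.02, and 13.3, 12.5 and 8.14 CPM of Cd80 from 27, 29 and 12 UMIs, which was past the fold above at 0.66 ± 0.06, where 6.9% of all genes were.

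T lymphocyte-like cells also held ligand UMIs. Cd274 was 26.6, 30.5 and 31.6 CPM and Pdcd1lg2 13.9, 22.3 and 23.4 CPM in them, neither past the fold. Cd86 was 14.98, 16.04 and 9.89 CPM and past the fold above, with a log2 ratio of 0.65 ± 0.07, where 4.99% of all genes were. The subsets were unlike, with 17.8, 19.2 and 7.18 CPM of Cd86 in CD4 T-like cells from 17, 24 and 9 UMIs. CD8 T-like cells had 21.3, 21.5 and 18.9 CPM of Cd86. Summed macrophage markers in the T lymphocyte-like cells were 314, 310.1 and 125 CPM, 10 of 12 of them above WT in both Aoah-/- libraries and 0 of 12 at 0 in every library. Of T lymphocyte-like cells, 66.03%, 71.3% and 82.8% held no UMI of another leukocyte lineage. The part of either in the Cd86 value was not tested.

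B lymphocyte-like cells of Aoah-/- replicate 2 differed from those of the other 2 libraries. Cd274 was 93.01, 26.4 and 21.7 CPM there, and Ctla4 was 19.5, 3.47 and 3.25 CPM, from 90, 5 and 6 UMIs. In the 1182 B lymphocyte-like cells of that library 60 held a Ctla4 UMI (5.08%), against 3 (0.6198%) and 5 (0.718%) in the others, without thinning. The cells with a Ctla4 UMI had median depths of 6974.5, 5333 and 3294 UMIs. Those without had 2668.5, 2463 and 2220 UMIs, and the part of depth was not tested. The 1122 cells of Aoah-/- replicate 2 without a Ctla4 UMI had 88.3 CPM of Cd274, near the level of the whole class. Cd80 in the class was 9.52, 5.56 and 2.17 CPM from 44, 8 and 4 UMIs, past the fold above, where 7.52% of all genes were.

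Over all kept cells of a library, all 4 ligands were past the fold above, where 9.81% of 17451 genes were. CPM here is relative to all kept UMIs of the library. Cd274 was 16.2, 14.9 and 7.24 CPM, a log2 ratio of 1.10 ± 0.09. Cd80 was 2.57, 2.095 and 1.08 (log2 ratio 1.11 ± 0.21), Pdcd1lg2 2.59, 3.25 and 1.605 (0.87 ± 0.23) and Cd86 26.1, 24.1 and 16.05 (0.64 ± 0.08). In whole-library values more cells of a type and more RNA per cell cannot be told apart. Granulocyte-like cells were 3.86%, 3.55% and 1.17% of kept cells, and they added 2.395, 2.76 and 0.618 Cd274 CPM and 0.803, 0.867 and 0.0883 Pdcd1lg2 CPM.

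Granulocyte-like cells added more Cd274 in both Aoah-/- libraries than in WT, but some other cells that carried the difference were not the same in both. B lymphocyte-like cells added 3.26, 0.292 and 0.321 Cd274 CPM and unnamed cluster 29 added 2.51, 0.0537 and 0.0642, both high in Aoah-/- replicate 2 alone. Macrophage-like cells added 1.57, 2.47 and 1.19 and dendritic-like cells 0.826, 1.96 and 0.923, both highest in Aoah-/- replicate 3. Without cluster 29 the Cd274 ratio was 1.03 ± 0.01, without cluster 29 and B lymphocyte-like cells 0.91 ± 0.24, and without granulocyte-like cells as well 0.73 ± 0.29, where Aoah-/- replicate 2 was 1.42-fold above WT and Cd274 no longer past the fold. Cd86 lost the call without cluster 29 alone, at 20.5, 24.04 and 15.7 CPM (log2 ratio 0.51 ± 0.16), since the cluster added 6.98, 0.0614 and 0.465 Cd86 CPM. Cd80 stayed past the fold under all 3 removals, at 1.03 ± 0.08, 0.94 ± 0.04 and 0.69 ± 0.10. Pdcd1lg2 was past the fold without cluster 29 but not without the B lymphocyte-like cells as well, where Aoah-/- replicate 2 was 1.44-fold above WT. Removing granulocyte-like cells as well took Pdcd1lg2 from 0.83 ± 0.39 to 0.34 ± 0.61, at 1.25, 2.28 and 1.398 CPM, so that Aoah-/- replicate 2 was then below WT. These 3 removals were chosen after the values were seen, and the share of all genes past the fold was not counted for them.

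**Figure D5:**
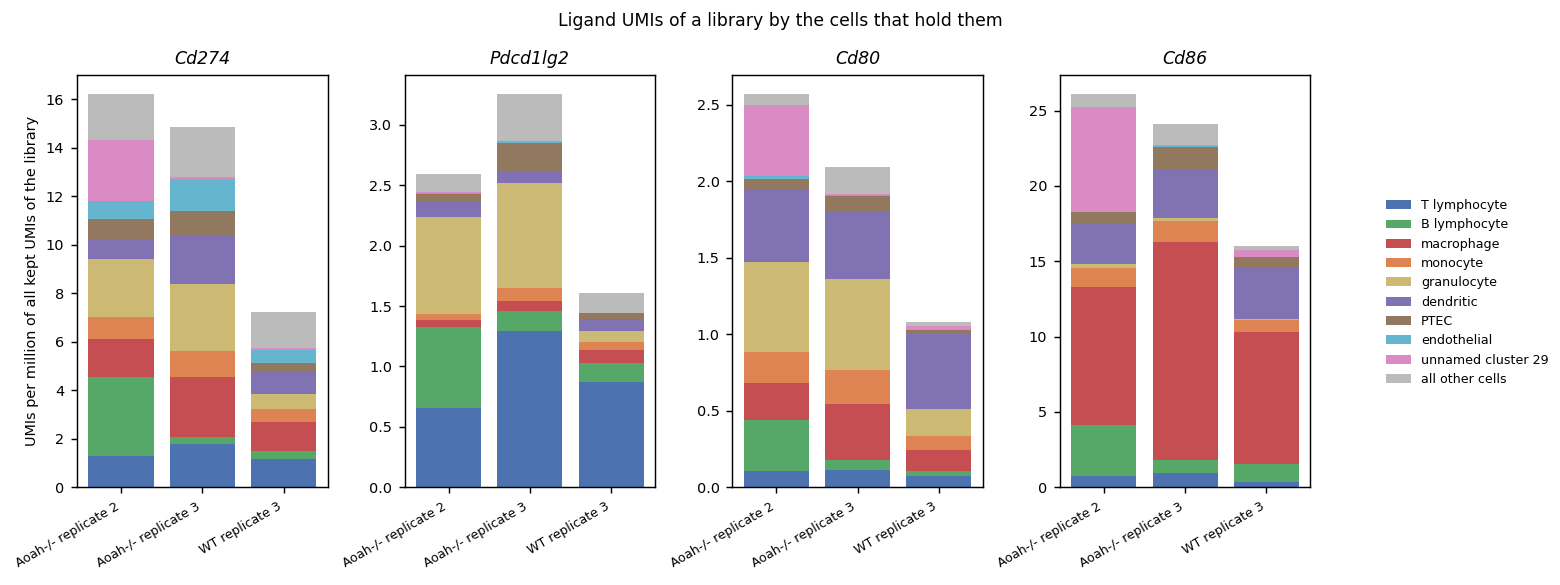
Stacked bars of the UMIs of Cd274, Pdcd1lg2, Cd80 and Cd86 per 1000000 kept UMIs of each library, divided by the cells that held them (each named class is X-like). The Cd274 bars reach 16.2 and 14.9 in the Aoah-/- libraries and 7.24 in WT, with B lymphocyte-like cells and cluster 29 wide in Aoah-/- replicate 2 only and granulocyte-like cells wide in both Aoah-/- libraries.

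Of the 6 receptors over all kept cells, 1 was past the fold above, where 9.81% of 17451 genes were. Pdcd1 was 5.43, 6.11 and 3.39 CPM (log2 ratio 0.77 ± 0.12, the 1 past the fold), while Ctla4 was 9.32, 12.9 and 8.26 and Icos 11.97, 18.2 and 15.6, with WT between the Aoah-/- libraries for Icos. The log2 ratios of Tigit, Havcr2 and Lag3 were 0.75 ± 0.28, 0.55 ± 0.39 and 0.41 ± 0.41, and without cluster 29 Tigit was past the fold above as well (0.79 ± 0.20). The share of all genes past the fold without that cluster was not counted. T and NK lymphocyte-like cells were 10.6%, 11.2% and 8.104% of kept cells. Within T lymphocyte-like cells the Pdcd1 ratio was 0.15 ± 0.16, smaller than over the whole library.

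Other genes of the same pathways were read from fixed lists, and those named below were named after their values were seen. In T lymphocyte-like cells, where 4.99% of all genes were above and 3.0% below, 1 of 9 other inhibitory receptors was past the fold above and 0 below, namely Klrg1, a receptor of late effector cells (43.7, 46.3 and 26.7 CPM). Of 7 costimulatory receptors, 0 were above and 1 below, Cd40lg, which helper T cells use to activate dendritic and B cells (37.8, 46.7 and 87.97 CPM, log2 ratio -1.06). Cd40lg was a naming marker of CD4 T-like cells, which were 14.5%, 18.05% and 28% of T and NK cells. The part of this mixture in the Cd40lg value was not tested. Cd28, which shares its ligands with CTLA-4, was 257, 273 and 312 CPM. Of 15 other ligands 8 had 20 UMIs or more, and 0 were past the fold in either direction.

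Of 14 exhaustion and effector genes in T lymphocyte-like cells, 3 were above and 0 below, against 4.99% of all genes above. They were Gzmk (161, 143 and 70.5 CPM), Eomes, a factor of CD8 effector and memory cells (103, 75.03 and 37.6 CPM), and Entpd1, the ectoenzyme CD39 (20.7, 22.7 and 12.9 CPM). In CD8 T-like cells alone 1 of the 14 was above, against 10.6% of all genes. It was Entpd1 (33.8, 33.8 and 15.1 CPM), and Gzmk and Eomes were not past the fold. Tox was 96.6, 70.7 and 61.1 CPM in T lymphocyte-like cells, not past the fold. In macrophage-like cells 9 of the 15 other ligands had 20 UMIs or more, of which 1 was above, against 9.98% of all genes, and 0 below. It was Cd200, a ligand that restrains myeloid cells (4.18, 8.75 and 2.23 CPM). Of the ligands that pair with a member, Icosl, the ligand of ICOS, was 23.2, 20.4 and 13.6 CPM with 1 library just short of the fold, Pvr, a ligand of TIGIT, was 34.9, 38.8 and 26.5 CPM, and Lgals9, a ligand of TIM-3, was 66.8, 78.8 and 57.5 CPM.

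The genes most alike 9 of the members were ranked by Pearson's r of log2(CPM + 1) over 63 class and library pairs of at least 50 cells, which share libraries and depth, so r is a description. Icos was most like Cd3g (r = 0.959) and Cd3d (0.957), Ctla4 most like Icos (0.930), and Pdcd1 most like Cd3e (0.908). Cd274 was most like Srgn (0.910) and Cd86 most like Ctss (0.860), genes of leukocyte granules and of antigen processing. Havcr2 and Cd80 had the same nearest gene, Mctp1 (0.876 and 0.848), and Pdcd1lg2 was most like Isy1 (0.874). Tigit was most like Cd6 (0.832).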

How the data were processed

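Single-cell 3' RNA-seq of 3 libraries was used. The authors deposited raw UMI counts per gene and barcode, made with Cell Ranger (3.1.0 per the labels, 6.1.2 per the file headers) on mm10, and the submitters' processing notes also name STAR and Seurat 4.2.0. A cell was kept if it had 200 genes or more and no more than 50% of its UMIs from mitochondrial genes. They were clustered in scanpy 1.11.5 (2000 variable genes, 50 principal components, 15 neighbours, Leiden resolution 1, with the members, Aoah, Cd74 and MHC class II genes left out), and T, NK and dendritic cells were clustered again. Clusters were named from marker lists by their mean fold over other cells, 28 of 40 were named, and 12 were left unnamed. Doublets were kept, since Scrublet called 544, 0 and 201 cells and so had not worked in 1 library. Levels are the UMIs of a gene over all cells of a class in a library, as CPM of the UMIs of those cells. With 1 WT library there is no test, and n is 2 Aoah-/- libraries and 1 WT library. Errors are exact 95% Poisson or Clopper-Pearson intervals, and a count of 0 was bounded by 3 counts per library. UMIs at the 3' end were not scaled by length, so levels are compared between cells and not between genes. Past the fold means at least 1.5-fold in both Aoah-/- libraries with at least 20 UMIs. Log2 ratios compare the mean of the 2 Aoah-/- libraries with WT, with the SD of the 2 single ratios. For shares of cells, each cell was thinned to 1000 UMIs. The fold rule and the Poisson interval were tested on simulated Poisson counts. These held no differences between mice or in cell mixture, so the test does not cover such differences. The members and gene lists were chosen with earlier results of these data known. All 10 members were named with values in every library, and likeness used genes of at least 50 CPM in 1 pair. Weighting T subsets as in WT, removing cluster 29, B lymphocyte-like and granulocyte-like cells, and leaving WT out of the UMI shares were chosen after seeing the data. Other settings were other cell filters, clustering, gates, scaling and folds. The likeness of Lag3 is not reported here.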

Additional observations from a re-analysis of the deposited data

Results flagged for a closer look

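Pdcd1lg2 had ratios of opposite sign in 2 cell classes. In macrophage-like cells both Aoah-/- libraries were below WT, at a log2 ratio of -1.11 on 8, 11 and 14 UMIs, but the sign is unsure there, since the ratio was 0.24 with mean per-cell CPM. In granulocyte-like cells both were above, at 1.54 on 106, 113 and 11 UMIs. The difference between the classes was not tested.

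A further pair of values lies in unnamed clusters, which entered no comparison of a cell class. Icos in unnamed cluster 25, a cluster with endothelial markers, had a log2 ratio of 1.89 from 22, 42 and 6 UMIs, at 8.13, 12.2 and 2.74 CPM against 1.29, 4.07 and 0.865 CPM in the background tubule cells. Cd274 in unnamed cluster 29 had a log2 ratio of 2.21 from 331, 7 and 8 UMIs, where Aoah-/- replicate 3 held 13 cells and WT 77.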

How the results depend on the processing

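No paired analysis was possible because the Aoah-/- and WT libraries share only replicate number 3. In T lymphocyte-like cells, 0 receptors were above WT, and 3 (Pdcd1, Lag3 and Havcr2) were when divided by all UMIs of the library. In that setting more T cells and more RNA per cell cannot be told apart. T lymphocyte-like cells held 4.76%, 5.79% and 3.73% of kept UMIs. Leaving out either Aoah-/- library gave 1 (Lag3 without replicate 2, Havcr2 without replicate 3). The count below WT was 0 and became 1, Icos, with at most 20% mitochondrial UMIs, at least 500 genes, without the 10% of cells of highest Scrublet score, 30 principal components, marker gates, thinning or mean per-cell CPM, and ranged from 0 to 1 with an Aoah-/- library left out (1 without replicate 3). In macrophage-like cells, the 1 ligand above (Cd80) became 0 with at most 20% mitochondrial UMIs, at least 500 genes, the same lowest UMI total, marker gates or a 2-fold limit, and 2 with mean per-cell CPM, and with thinning the 1 was Cd274 in place of Cd80. The 1 below (Pdcd1lg2) became 0 with at least 500 genes, the same lowest UMI total, the Scrublet limit, 30 principal components, marker gates, no UMIs of another lineage, thinning, mean per-cell CPM or library scaling, and its log2 ratio turned to 0.24 with mean per-cell CPM. Both counts were 1 with either Aoah-/- library left out. In dendritic-like cells, 0 above became 1 with thinning (Cd274), without Aoah-/- replicate 2 (Cd274) or without replicate 3 (Pdcd1lg2), and 0 below became 1 with marker gates (Cd80), staying 0 with a library left out. The share of receptor UMIs in T and NK lymphocyte-like cells, 72.9%, was 77.0% with the Scrublet limit, 68.5% without cells of mixed lineage and 81.4% thinned, and 69.8% to 75.5% with a library left out. The share of ligand UMIs in myeloid-like cells, 60.7%, was 56.7% to 68.2% with a library left out. The causes were not tested. For the counts of genes past the fold under these other settings, the share of all genes past the fold is not given. Of 286 log2 ratios of single members under the alternatives that keep both Aoah-/- libraries, 155 stayed within the spread between the Aoah-/- libraries, 130 moved by more and 1, past the fold, reversed, while 28 in all changed sign. Of 54 with an Aoah-/- library left out, 6 changed sign. With 1 WT library, differences between mice cannot be told apart from differences between genotypes, and Tigit, Pdcd1lg2 in macrophage-like cells and Cd80 outside dendritic-like and granulocyte-like cells rest on few UMIs.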
